A study of Rosa roxburghii with 15 samples.

Results

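TRINITY_DN148161_c1_g2 and TRINITY_DN144228_c3_g1 were the 2 unigenes whose best match bears a MYB3R name among the MYBs in the study's table. The study's R. roxburghii assembly holds 63727 unigenes. Those outside the table had no names here and were not searched for MYB3R matches. The rule uses that name and no measured value, although it was set with earlier results of these data known. Both were among the 142 MYBs that passed the filter on low values, which 21 MYBs did not. The best match of TRINITY_DN148161_c1_g2 was MYB-related protein 3R-1 of Fragaria vesca (woodland strawberry), and that of TRINITY_DN144228_c3_g1 was MYB3R-3 of Prunus persica (peach). R. roxburghii is a wild rose of the Rosaceae, grown for fruit rich in vitamin C. Their transcripts were measured by RNA-seq in mature fruit (120 days after flowering), young fruit (50 days after flowering), flower, stem and leaf, with 3 libraries per tissue and 15 in all. All tissues came from wild, untreated plants with no named mutation. Flowers were fully open, stems were new shoots, and leaves were mature and taken without their petioles. The fruit stages were harvested in later months than the flower, stem and leaf, so fruit and season cannot be told apart. The labels speak of 2 biological replicates with 3 plants in each, whereas the methods speak of 3 biological replicates. Whether the 3 libraries of a tissue are independent samples of plants is therefore unclear, and SDs and p-values here measure only the spread between these libraries, which may in part be technical. These are whole tissues, in which fewer cells expressing a gene and less of its RNA per cell cannot be told apart.

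MYB3R proteins are a small branch of the plant MYB family. Their DNA-binding domain has the repeats R1, R2 and R3, as in the animal protein c-Myb, whereas most plant MYBs carry R2 and R3 alone. They bind a short promoter element shared by genes that are transcribed when cells prepare for and enter mitosis, B-type cyclins among them. In Arabidopsis, MYB3R4 is known as an activator of these genes in dividing cells, MYB3R3 and MYB3R5 as repressors that keep them off in cells that have left the cycle, and MYB3R1 as acting in both ways. Which of these roles, if any, the rose unigenes have was not measured.

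The label of a 3-repeat protein rests on the best match alone. The study's table of repeat types covers 75 of the MYBs. TRINITY_DN148161_c1_g2 is typed R2R3 there, and the single MYB typed R1R2R3 is TRINITY_DN147128_c3_g4, whose best match is named MYB3. TRINITY_DN144228_c3_g1 is outside that table, so its repeat type is not given either way. The transcript and protein sequences of the unigenes were not analysed here, so the repeats could not be counted. TRINITY_DN144228_c3_g1 was among the 12 MYBs that the study carried to qRT-PCR. Its primers are shown because they define the study's assay for this unigene. They are printed in the direction in which the study lists them, taken as 5′ to 3′, and their match to the transcript was not checked:
TRINITY_DN144228_c3_g1 sense primer: ctcggtgttcttgtcaatgttg
TRINITY_DN144228_c3_g1 antisense primer: ggagatgtagtgaaggtgatgg
Each primer has 22 bases, of which 10 in the sense and 11 in the antisense primer are G or C. TRINITY_DN148161_c1_g2 was not among those 12 MYBs, and values from qRT-PCR were not used here.

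The deposited FPKM values, which are scaled for transcript length and library size, summed to between 490161 and 563597 per library. Read numbers were not in the files, so no counting interval is given. The steps between the lowest values put the deepest library at 1.53 times the shallowest. Libraries of the same tissue correlated at r = 0.943 to 0.967 and libraries of different tissues at 0.729 to 0.903. Mature fruit libraries 2 and 3 shared 2792 unigenes that were at 0 in every other library, against 68 for libraries 1 and 2 and 62 for libraries 1 and 3. Of 5 homologs of the secondary wall regulators MYB46, MYB63 and MYB86, 4 were highest in stem, and their summed level was 80.4 to 86.5 FPKM in stem and 34.8 FPKM or less in every other library. Of 5 homologs of the petal and stamen regulators MYB21, MYB24 and MYB305, 1 was highest in flower, and their summed level was 2.94 to 3.605 FPKM in flower, below all libraries of young fruit (3.611 to 4.37 FPKM) and stem (4.42 to 5.14 FPKM). It was 0.0837 to 0.303 FPKM in mature fruit and 0.0403 to 0.0965 FPKM in leaf. MYBs with insect best matches summed to 0 to 1.42 FPKM in mature fruit and to 0 in young fruit and stem. They summed to 0.032 to 0.14 FPKM in flower and 0.0612 to 0.299 FPKM in leaf. Such a match may come from material of another organism, but no sequence was examined. The part of these MYBs in the results was not tested.

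The 3R-1 homolog was the lower of the pair in all 15 libraries and the more variable across tissues. It was lowest in fruit and peaked in the flower. TRINITY_DN148161_c1_g2 stood at 0.558, 1.19 and 0.997 FPKM in the mature fruit libraries, numbered 1 to 3. In young fruit it stood at 1.91, 1.12 and 1.94 FPKM. Mature and young fruit overlapped, since young fruit library 2 was below mature fruit library 2. TRINITY_DN148161_c1_g2 reached 21.0, 21.0 and 19.8 FPKM in flower. It reached 8.56, 6.63 and 7.55 FPKM in stem and 4.56, 5.41 and 5.22 FPKM in leaf. All 6 fruit libraries lay below all 9 libraries of the other tissues, each flower library was above each stem library, and each stem library above each leaf library. The share of all unigenes that separate tissues in this way was not counted.

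The means of TRINITY_DN148161_c1_g2 were 0.915 ± 0.325 FPKM in mature fruit, 1.66 ± 0.462 FPKM in young fruit, 20.6 ± 0.741 FPKM in flower, 7.58 ± 0.962 FPKM in stem and 5.06 ± 0.443 FPKM in leaf (SD, n = 3 each). The order was flower, stem, leaf, young fruit and mature fruit, with steps of 2.72-fold, 1.5-fold, 3.06-fold and 1.81-fold between neighbours. The coefficient of variation was 35.5% in mature fruit, where the level was lowest, and 3.59% in flower. By level TRINITY_DN148161_c1_g2 stood at place 69 of all MYBs in mature fruit, at place 76 in young fruit, at place 17 in flower and at place 48 in both stem and leaf. It exceeded 64.0% of all unigenes in mature fruit and 92.0% in flower. Its share of the summed FPKM of all MYBs was 0.12% in mature fruit and 1.20% in flower.

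**Figure D1:**
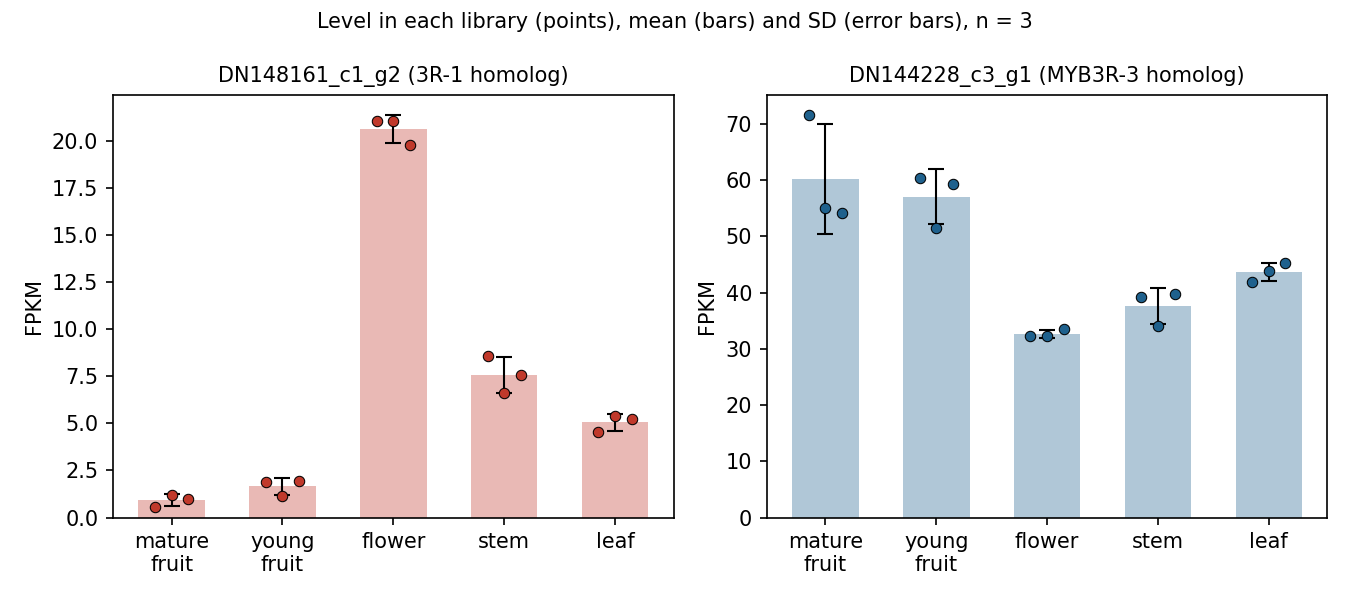
FPKM of TRINITY_DN148161_c1_g2 and TRINITY_DN144228_c3_g1 in each library (points) with the mean and SD of each tissue (n = 3), tissues on the x axis. The 3R-1 homolog is lowest in mature fruit (0.915 FPKM) and highest in flower (20.6 FPKM), and the MYB3R-3 homolog lies between 32.2 and 71.6 FPKM in all 15 libraries.

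Each of the 10 pairs of tissues was tested with limma on log2(FPKM + 0.1) over 51175 unigenes. A unigene was called where the Benjamini-Hochberg adjusted p was at most 0.01 and the change at least 1 on the log2 scale. TRINITY_DN148161_c1_g2 was called in 8 of the 10 pairs, with a standard error of 0.24 in each.

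In the fruit stages TRINITY_DN148161_c1_g2 was lower than in flower, stem and leaf in each of the 6 comparisons. The log2 difference was -4.41 for mature fruit against flower (limma, adjusted p = 4.35e-09), a pair in which 33.9% of all tested unigenes were called. For mature fruit against stem it was -2.97 (limma, adjusted p = 2.66e-07), with 29.4% of unigenes called. For mature fruit against leaf it was -2.40 (limma, adjusted p = 1.66e-06), and 37.0% were called. Every mature fruit library was below every library of these 3 tissues. Young fruit gave -3.60 against flower (limma, adjusted p = 3.46e-08), where 39.0% of unigenes were called. Against stem the difference was -2.16 (limma, adjusted p = 6.21e-06), with 27.4% called, and against leaf -1.59 (limma, adjusted p = 6.65e-05), with 41.8% called. Calls were therefore common in these pairs, at 27.4% to 41.8% of unigenes.

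Among flower, stem and leaf, TRINITY_DN148161_c1_g2 was higher in flower. The log2 difference was 1.44 for flower against stem (limma, adjusted p = 0.000348) and 2.01 for flower against leaf (limma, adjusted p = 1.86e-05), pairs in which 19.0% and 18.8% of unigenes were called. Stem against leaf gave 0.57 (95% interval 0.05 to 1.09, limma, adjusted p = 0.0787) and was not called, in a pair with 23.9% called. The libraries of stem and leaf did not overlap, although the test was not passed.

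The fruit stages were not separated at the threshold. TRINITY_DN148161_c1_g2 gave -0.81 on the log2 scale for mature against young fruit (95% interval -1.33 to -0.29, limma, adjusted p = 0.0135), in a pair with 30.2% of unigenes called. Single libraries decided this. Without mature fruit library 2 the difference was -1.01 (limma, adjusted p = 0.00486), and without young fruit library 2 it was -1.05 (limma, adjusted p = 0.00237), and both were called. Over the 26 alternative settings run for this pair the adjusted p ran between 0.00172 and 0.162.

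The MYB3R-3 homolog was one of the most abundant MYBs in every tissue and differed between tissues by less than a factor of 2. TRINITY_DN144228_c3_g1 had 71.6, 55.0 and 54.1 FPKM in mature fruit. It had 60.4, 51.4 and 59.3 FPKM in young fruit. The fruit stages overlapped, with mature fruit library 1 above all others. In flower TRINITY_DN144228_c3_g1 had 32.3, 32.2 and 33.6 FPKM. In stem it had 39.3, 34.0 and 39.7 FPKM, and in leaf 41.9, 43.8 and 45.3 FPKM. All 6 fruit libraries were above all 9 others. Leaf, stem and flower did not overlap, but the lowest stem library was only just above the highest flower library. Here too, how many of all unigenes separate tissues without overlap was not counted.

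The means of TRINITY_DN144228_c3_g1 were 60.2 ± 9.82 FPKM in mature fruit, 57.0 ± 4.91 FPKM in young fruit, 32.7 ± 0.756 FPKM in flower, 37.7 ± 3.18 FPKM in stem and 43.7 ± 1.66 FPKM in leaf (SD, n = 3 each). The order was mature fruit, young fruit, leaf, stem and flower, with steps of 1.06-fold, 1.31-fold, 1.16-fold and 1.15-fold between neighbours. By level TRINITY_DN144228_c3_g1 took place 2 of all MYBs in mature fruit, 4 in young fruit, 8 in flower, 9 in stem and 7 in leaf. It exceeded 97.7% of all unigenes in mature fruit and 95.2% in flower. Its share of the summed MYB FPKM was 7.88% in mature fruit, 4.55% in young fruit, 1.91% in flower, 2.49% in stem and 3.33% in leaf. This share also moves with the level of the other MYBs. Among them TRINITY_DN145829_c0_g2 alone had a mean of 661 FPKM in flower and 3.0 FPKM in mature fruit.

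TRINITY_DN144228_c3_g1 was called in 0 of the 10 pairs by limma. Without the minimum fold change, an adjusted p of at most 0.01 was reached in 7 of the 10 pairs, and an unadjusted p under 0.05 in 7 as well. That adjusted p was reached in 7 or more pairs by 68 of the 140 other MYBs tested (48.6%). Of all tested unigenes 22% did so. The standard error was 0.10 in each pair.

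Mature fruit exceeded flower by 0.87 on the log2 scale (95% interval 0.64 to 1.09, limma, adjusted p = 9.87e-06). This p passed together with 42.5% of all unigenes when no fold was required. The excess of mature fruit was 0.67 over stem (0.44 to 0.89, limma, adjusted p = 0.000122, 38.0% of unigenes) and 0.45 over leaf (0.23 to 0.68, limma, adjusted p = 0.00223, 45.1%). Young fruit exceeded flower by 0.80 (0.57 to 1.02, limma, adjusted p = 1.83e-05, 48.9%). It exceeded stem by 0.60 (0.37 to 0.82, limma, adjusted p = 0.000321, 36.0%) and leaf by 0.38 (0.16 to 0.61, limma, adjusted p = 0.0061, 50.8%). In all 6 comparisons TRINITY_DN144228_c3_g1 was thus higher in fruit, and the interval reached a doubling only against flower. With mature fruit library 1 as the single mature fruit library, the excess over flower was 1.13 (limma, adjusted p = 1.28e-05) and was called. That library was the highest of the 3, the setting was chosen after seeing the data, and its spread is assumed to be that of the other libraries. With mature fruit libraries 2 and 3 alone the excess was 0.74 (limma, adjusted p = 9.88e-06) and was not called. Over the 26 alternative settings the adjusted p of this pair ran between 3.43e-08 and 0.00361.

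Between mature and young fruit TRINITY_DN144228_c3_g1 differed by 0.07 (-0.15 to 0.29, limma, adjusted p = 0.65), where 39.1% of unigenes reached the p. The sign turned to -0.06 without mature fruit library 1 and to -0.003 without young fruit library 2. Flower was below leaf by a difference of -0.42 (-0.64 to -0.19, limma, adjusted p = 0.00619, 27.9%). Flower against stem gave -0.20 (-0.42 to 0.02, limma, adjusted p = 0.164, 28.0%) and stem against leaf -0.22 (-0.44 to 0.01, limma, adjusted p = 0.121, 32.7%). Neither reached the p in the main setting. The 3 passing pairs with leaf were the ones that depended on single libraries: without leaf library 1, the number of pairs of TRINITY_DN144228_c3_g1 at an adjusted p of at most 0.01 was 4 in place of 7. The leaf pairs and flower against stem also moved with the scaling between libraries. After median-of-ratios scaling, which gave the leaf libraries factors of 0.857 to 0.886, the difference from leaf was 0.23 in mature fruit, 0.19 in young fruit (limma, adjusted p = 0.0256) and -0.75 in flower. With this scaling flower against stem gave -0.31 (limma, adjusted p = 0.00213) and stem against leaf -0.44 (limma, adjusted p = 0.000113). Both then reached the p, and young fruit against leaf did not.

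**Figure D2:**
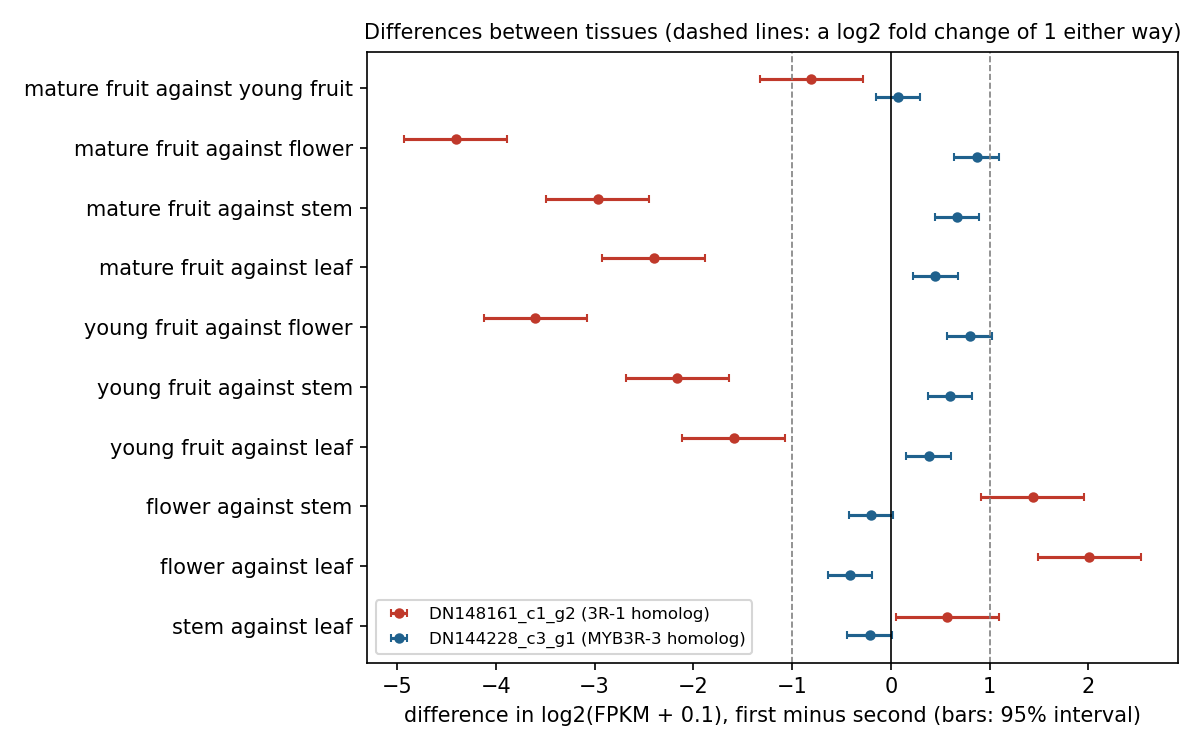
Log2 difference of TRINITY_DN148161_c1_g2 and TRINITY_DN144228_c3_g1 in each of the 10 pairs of tissues, first tissue minus second, with the 95% interval of limma, and dashed lines at the minimum change of 1 in either direction. The 3R-1 homolog runs between -4.41 and 2.01 and lies beyond the lines in 8 pairs, and the MYB3R-3 homolog stays between -0.42 and 0.87.

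The patterns of the pair ran in opposite directions. The 3R-1 homolog had its lowest means in fruit and its highest in flower, and the MYB3R-3 homolog the reverse. Over the 5 tissue means of log2(FPKM + 0.1), TRINITY_DN148161_c1_g2 and TRINITY_DN144228_c3_g1 gave Pearson's r = -0.989. This was the lowest r of either with the 114 MYBs compared. How many of all unigenes reach so low an r was not counted. The r was not computed after median-of-ratios scaling. The value is a description over 5 points that share the same libraries and scaling, and no p is given.

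The ratio of TRINITY_DN144228_c3_g1 to TRINITY_DN148161_c1_g2, both in FPKM and so per transcript length, was 128.3, 46.2 and 54.3 in mature fruit. It was 31.7, 45.8 and 30.6 in young fruit, and so the 2 stages came close to each other without overlap. In flower the ratio was 1.54, 1.53 and 1.70. In stem it was 4.59, 5.13 and 5.25, and in leaf 9.19, 8.10 and 8.67. The level of the MYB3R-3 homolog was thus at least 30.6 times that of the 3R-1 homolog in every fruit library, and the homologs came nearest to each other in flower. Most of the movement of the ratio was in TRINITY_DN148161_c1_g2, whose tissue means spanned 4.41 on the log2 scale, against 0.87 for TRINITY_DN144228_c3_g1.

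**Figure D3:**
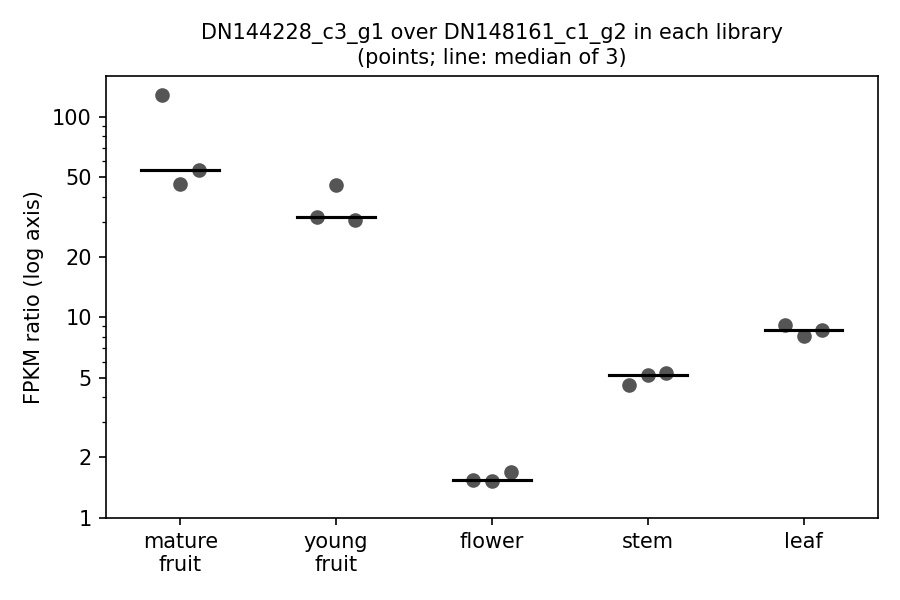
Ratio of TRINITY_DN144228_c3_g1 to TRINITY_DN148161_c1_g2 in each of the 15 libraries (points) on a log axis, by tissue, with a line at the median of each tissue. The mature fruit libraries lie between 46.2 and 128.3 and the flower libraries between 1.53 and 1.70.

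Against the other MYBs, the MYB3R-3 homolog varied little and the 3R-1 homolog somewhat more than most. Among 113 other MYBs with a mean of at least 1 FPKM in a tissue, the range of the tissue means had a median of 3.21 on the log2 scale. For TRINITY_DN144228_c3_g1, 7 of them (6.19%) had a smaller range. For TRINITY_DN148161_c1_g2, 80 of them (70.8%) had a smaller range. Over all 30435 other unigenes at this level the median range was 2.35, and 12% lay below TRINITY_DN144228_c3_g1 and 82.2% below TRINITY_DN148161_c1_g2.

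The number of pairs called gave a like picture. Of 140 other MYBs tested, 32 (22.9%) were called in at least 8 pairs, as TRINITY_DN148161_c1_g2 was, and of all tested unigenes 2730 (5.33%). In 0 pairs, as for TRINITY_DN144228_c3_g1, were 22 of these MYBs (15.7%) and 15480 unigenes (30.2%). The median was 6 pairs for the other MYBs and 3 for all unigenes. Among the 34 tested MYBs typed R2R3, TRINITY_DN148161_c1_g2 included, 12 were called in at least 8 pairs and 1 in 0 pairs. Only MYBs that the study found to differ between tissues in these libraries were typed. A low number in 0 pairs was thus built into that list and says nothing about R2R3 MYBs as a class. Among the 12 MYBs of the qRT-PCR, which include TRINITY_DN144228_c3_g1, 4 were called in 0 pairs and 4 in at least 8.

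TRINITY_DN148161_c1_g2 fell in fruit in all 6 comparisons with the other tissues, and the other MYBs and all unigenes are set beside it here. For mature fruit against flower, 62 of the 140 other MYBs fell and 19 rose (median log2 difference -0.91), against 10477 and 6875 of the 51175 unigenes (median 0). Mature fruit against stem had 66 MYBs that fell and 11 that rose (median -1.16), against 8743 and 6294 unigenes (median 0). Mature fruit against leaf had 50 and 26 MYBs (median -0.27), against 9601 and 9309 unigenes (median 0). Calls in either direction were thus common among MYBs and among all unigenes of these pairs. For young fruit against flower, 42 MYBs fell and 37 rose (median -0.06), against 8330 and 11613 unigenes (median 0). Young fruit against stem had 46 and 16 MYBs (median -0.38), against 5143 and 8893 unigenes (median 0.01). Young fruit against leaf had 33 MYBs that fell and 44 that rose (median 0.42), against 7500 and 13897 unigenes (median 0.27), so there most called MYBs ran the other way to TRINITY_DN148161_c1_g2.

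**Figure D4:**
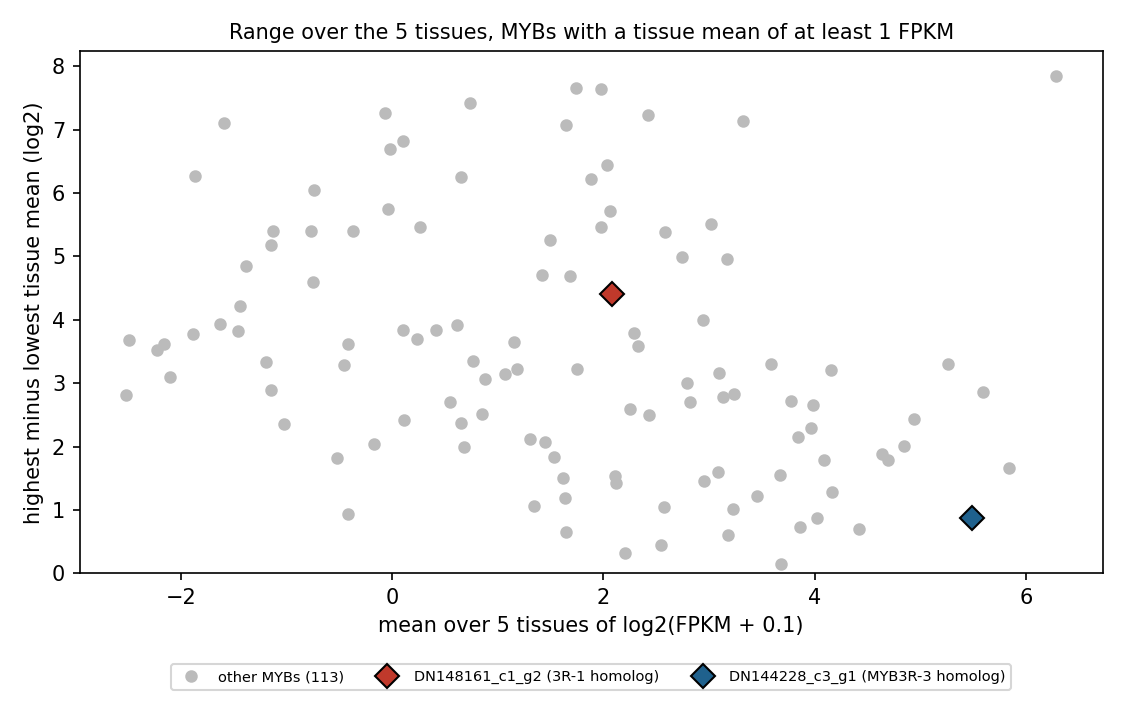
Range of the 5 tissue means (highest minus lowest, log2 scale) against the mean over the tissues of log2(FPKM + 0.1), for TRINITY_DN148161_c1_g2, TRINITY_DN144228_c3_g1 and 113 other MYBs (grey) with a tissue mean of at least 1 FPKM. The MYB3R-3 homolog combines a high level with a range of 0.87, which 7 other MYBs undercut, and the 3R-1 homolog has a range of 4.41.

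The single MYB typed R1R2R3 had a pattern of its own. TRINITY_DN147128_c3_g4 had a lowest, median and highest level of 28.9, 30.6 and 32.4 FPKM in mature fruit. It had 5.18 to 5.71 FPKM in young fruit, 11.5 to 13.4 FPKM in flower, 6.13 to 6.84 FPKM in stem and 0.775 to 0.926 FPKM in leaf. Like every typed MYB, it was one that the study found to differ between tissues. It was called in 8 of the 10 pairs. Unlike either MYB3R homolog it was lowest in leaf.

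The MYBs whose tissue means were most like those of TRINITY_DN148161_c1_g2 also peaked in flower. TRINITY_DN58257_c0_g1, with the best match MYB-like protein J, had r = 0.978 with it, was listed at 0 in all fruit libraries and had a mean of 2.79 FPKM in flower. TRINITY_DN145829_c0_g2, an R2R3-like match, had r = 0.946 and means of 3.0 FPKM in mature fruit, 39.8 FPKM in young fruit and 661 FPKM in flower. Next came TRINITY_DN149070_c1_g2, matched to MYB10 (r = 0.935), and TRINITY_DN142101_c1_g2, a homolog of the phloem regulator APL (r = 0.933). The last was TRINITY_DN138619_c0_g2, a MYB3 match (r = 0.924). The MYB10 match is listed without a species, and the study types that unigene as atypical. With 5 points a high r is not rare, and 1730 of 30436 unigenes (5.68%) passed 0.9 with TRINITY_DN148161_c1_g2.

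Those most like TRINITY_DN144228_c3_g1 were higher in fruit. TRINITY_DN145308_c4_g7, matched to MYB12b, had r = 0.919, with means of 3.28 FPKM in mature fruit and 0.589 FPKM in flower. TRINITY_DN142862_c0_g1, matched to MYB4, had r = 0.904 and means of 84.3 FPKM in mature fruit and 0.315 FPKM in flower, a range far wider than that of the MYB3R-3 homolog. TRINITY_DN139053_c0_g1 (APL, r = 0.895) and TRINITY_DN143480_c3_g1 (PHL7, r = 0.810) were called in 0 pairs, like TRINITY_DN144228_c3_g1, and TRINITY_DN144022_c3_g4 (MYB308, r = 0.785) in 8 pairs. The MYB12b and MYB4 matches were also the most unlike TRINITY_DN148161_c1_g2 after the MYB3R-3 homolog, at r = -0.963 and -0.924. TRINITY_DN58257_c0_g1 and TRINITY_DN146459_c2_g5 were the most unlike TRINITY_DN144228_c3_g1 after the 3R-1 homolog, at r = -0.986 and -0.943. An r above 0.9 with TRINITY_DN144228_c3_g1 was reached by 656 of 30436 unigenes (2.16%).

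Trinity groups related contigs into components, and unigenes of a component can share reads. TRINITY_DN148161_c1_g2 shares its component with 5 other unigenes and TRINITY_DN144228_c3_g1 with 4, and none of them is in the study's table of MYBs. So the levels of both homologs are uncertain to the extent that reads were divided among these unigenes, which was not tested. Within the component of TRINITY_DN148161_c1_g2, 2 unigenes are named here, chosen after their values were seen. TRINITY_DN148161_c1_g1, of the same subcomponent, was listed at 0 in the 3 mature fruit libraries and had 5.05, 2.64 and 3.43 FPKM in young fruit. In flower TRINITY_DN148161_c1_g1 had 8.50, 3.32 and 4.45 FPKM, so it too was highest on average in flower, with a wider spread than TRINITY_DN148161_c1_g2. In stem it had 0.829, 0 and 3.78 FPKM and in leaf 0, 1.60 and 2.78 FPKM, and it was called in 2 pairs. Its r with TRINITY_DN148161_c1_g2 was 0.597.

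TRINITY_DN148161_c2_g2 ran the other way to TRINITY_DN148161_c1_g2, with r = -0.895 between them. It had 36.9, 34.6 and 28.9 FPKM in mature fruit and 13.0, 18.2 and 14.2 FPKM in young fruit. In flower TRINITY_DN148161_c2_g2 had 1.63, 1.89 and 1.71 FPKM. It stood at 2.26 to 2.82 FPKM in stem and at 1.20 to 1.65 FPKM in leaf. Mature fruit exceeded flower by 4.18 on the log2 scale (limma, adjusted p = 1.07e-10), and TRINITY_DN148161_c2_g2 was called in 7 pairs. The other 3 unigenes of this component had r of -0.853, 0.167 and 0.977 with the 3R-1 homolog. Their highest tissue means were 25.2 FPKM in young fruit, 2.75 FPKM in leaf and 1.96 FPKM in flower, in that order. In the component of TRINITY_DN144228_c3_g1, r with the MYB3R-3 homolog lay between -0.89 and -0.049, and the 4 unigenes were called in 4, 2, 0 and 0 pairs.

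**Figure D5:**
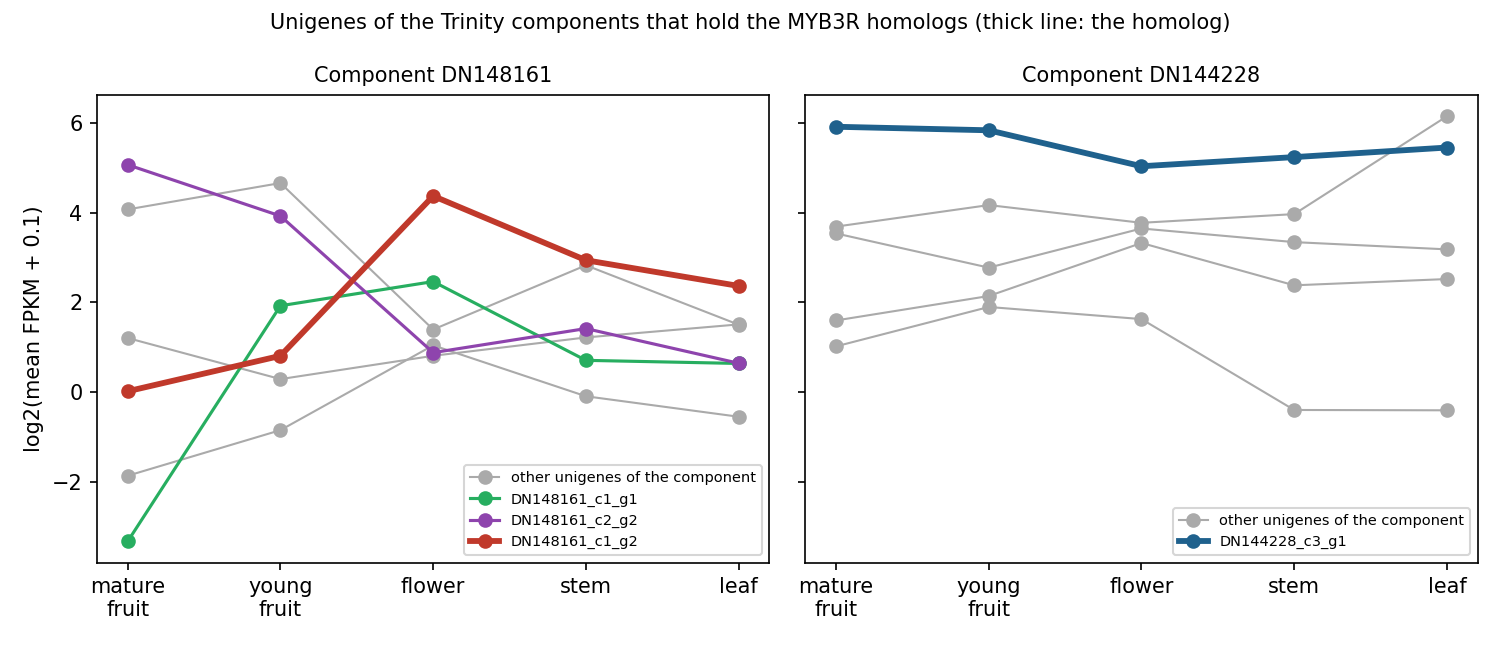
Tissue means, as log2(mean FPKM + 0.1), of the unigenes in the Trinity components of TRINITY_DN148161_c1_g2 and TRINITY_DN144228_c3_g1, tissues on the x axis, with the homolog as the thick line, the named neighbours in colour and other unigenes in grey. TRINITY_DN148161_c2_g2 is highest in mature fruit, where TRINITY_DN148161_c1_g2 is lowest.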

How the data were processed

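RNA was measured in 5 tissues of R. roxburghii with 3 libraries each, grouped by the tissue in their labels. The authors trimmed the reads (Trimmomatic, per the submitters' notes), assembled them with Trinity, aligned them with Bowtie2 and estimated abundance with RSEM. Tool versions were not given in the sources used here. The deposited FPKM values were used unchanged. The files hold no read counts, so depth was taken here only as a ratio between libraries. The paper gives read totals and a summary of read mapping, which were not used here. A value of 0 says only that a unigene is listed at 0.

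Values were transformed as log2(FPKM + 0.1) and fitted with limma 3.58.1 (R 4.3.3), with a mean for each tissue and a prior variance that followed the level. Testing required more than 0.1 FPKM in 3 libraries or more, which kept 51175 unigenes and 142 MYBs, both MYB3R homologs included, and left out 12552 unigenes, 21 MYBs among them. All 10 pairs of tissues were compared, with Benjamini-Hochberg adjustment within a pair. The thresholds, an adjusted p of 0.01 and a log2 change of 1, are those of the study's methods, which name no test. A fold change on this scale understates changes of low values. The script was tested on simulated data. Likeness is Pearson's r over tissue means for MYBs with a mean of at least 1 FPKM in a tissue. Python 3.11.15, numpy 2.4.6, pandas 2.3.3 and matplotlib 3.10.9 were used for the other tables and the plots.

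Named in the text are both homologs, the MYB typed R1R2R3, for each homolog the 5 MYBs with the highest r and the 3 with the lowest, and 2 unigenes of their Trinity components. The lists were all MYBs of the study's table, the 42 typed R2R3 and the 12 of the qRT-PCR. The homologs, lists and tests were chosen with earlier results of these data known. The alternatives were pseudocounts of 0.01 and 1, no filter or a stricter filter, median-of-ratios scaling, no trend, a replicate block, fits of the 6 libraries of a pair, other thresholds and leaving out each library. The setting with mature fruit library 1 alone, and the counts without a minimum fold under each alternative, were added after seeing the data.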

Additional observations from a re-analysis of the deposited data

How the results depend on the processing

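The 8 calls of TRINITY_DN148161_c1_g2 held in all 26 alternative settings run, and its difference between mature and young fruit was -1.05 to -0.523 when each library was left out in turn. With mature fruit library 1 as the only mature fruit library, a setting chosen after seeing the data, that difference was -1.38 (limma, adjusted p = 0.00172), and TRINITY_DN144228_c3_g1 was called in 1 pair, mature fruit against flower, at 1.13. The lone library is there assumed to vary like the others. Leaving out each library gave TRINITY_DN144228_c3_g1 -0.06 to 0.141 between mature and young fruit, with -0.06 without mature fruit library 1 and -0.003 without young fruit library 2. With no minimum fold TRINITY_DN144228_c3_g1 passed in 7 pairs, at 0.868, 0.668 and 0.452 for mature fruit against flower, stem and leaf, 0.798, 0.598 and 0.382 for young fruit against the same tissues, and -0.416 for flower against leaf. That count was 4 to 7 with each library left out (4 without leaf library 1), 5 with no trend, 5 with fits of 6 libraries and 8 with median-of-ratios scaling. Of these pairs, mature fruit against flower and young fruit against flower and stem stayed at an adjusted p of 0.00673 or less in limma in every setting. A pseudocount of 1 lowered the share of all tests called to 16.4%, against 30.0% with 0.1. Median-of-ratios scaling moved the median log2 difference of all unigenes for young fruit against leaf to 0.125, against 0.265 unscaled, and by 0.09 or less in other pairs. The cause of these changes was not tested.

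Libraries with the same replicate number showed no strong shared deviation (r of -0.0419 to 0.0613 in 30 pairs). A weak effect of shared plants could be missed by this, so whether the numbers pair samples stays unknown. With the replicate block, TRINITY_DN148161_c1_g2 was called in 8 pairs and TRINITY_DN144228_c3_g1 in 0, and 29.6% of all tests were called. The files hold no read counts, so how far depth limits the precision of TRINITY_DN148161_c1_g2 in fruit, where its coefficient of variation was 35.5% (mature) and 27.9% (young), was not tested.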
